A study of Mus musculus with 16 samples.

Results

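The RNA sequencing data of mouse lung endothelial cells (MLECs) were examined for 5 leukocyte adhesion molecules: intercellular adhesion molecule 1 (Icam1) and 2 (Icam2), vascular cell adhesion molecule 1 (Vcam1), E-selectin (Sele) and P-selectin (Selp). The 5 genes were taken from the count table by symbol, out of 55414 genes listed, and all 5 were among the 15693 genes that passed the filter on low counts and were tested. The rule that picks them uses their symbols and no measured value, though results of these data were known when they were proposed. The study asked how BMP9, a circulating ligand of the BMP family, signals with and without its co-receptor endoglin (Eng). MLECs of 4 isolations, each from 1 Rosa26-CreERT2;Eng fl/fl mouse (C57BL/6 background) carrying the Immorto transgene, were each divided into vehicle-treated control (Ctrl) cells and 4-OH-tamoxifen-treated knockout (KO) cells. Ctrl cells then received PBS or sENG(M):BMP9, a complex of BMP9 with soluble endoglin, and KO cells received PBS or pro:BMP9, the ligand with its prodomain, both for 90 min at a dose of 0.2 ng/ml counted as BMP9 growth factor domain. Each of the resulting 4 groups held 1 library per isolation, 16 in all. According to the paper, soluble endoglin was in large excess over BMP9 in the complex, and neither the PBS cells nor the KO cells received it. In this design the form of the ligand and the excess of soluble endoglin changed together with the genotype, and loss of Eng together with tamoxifen.

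All groups shared features of selection and culture that touch these genes. The cells had been selected with beads against CD31 and then against ICAM2, so Icam2 was itself a selection marker. They had been grown with interferon-γ, an inducer of several adhesion molecules, which was withdrawn before the experiment, and with the TGF-β receptor kinase inhibitor SB431542, also withdrawn. The Immorto transgene encodes a conditional viral oncogene that keeps the cells dividing under the growth conditions. Before ligand, all cells were moved to a higher temperature without interferon-γ and were then serum-starved overnight. Rosa26 drives Cre in all cell types, so cells other than endothelial cells in a culture would be recombined too. The age of the mice is not given in the sources used here.

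Leukocytes leave the blood in steps. The selectins catch passing leukocytes by binding sugars on their surface and let them roll, and the immunoglobulin-type molecules ICAM1, ICAM2 and VCAM1 then hold them firmly by binding integrins. ICAM2 is present on resting endothelium, whereas ICAM1, VCAM1 and E-selectin are classical targets of NF-κB signalling and are induced by cytokines such as TNF and interleukin-1. P-selectin is also kept in storage granules with von Willebrand factor and reaches the surface without new transcription, so its mRNA does not report its surface level.

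Library totals lay between 14869115 and 17242117 counts, and the 5 genes were counted deeply, from 850 reads of Icam2 in its lowest library to 45197 of Vcam1 in its highest. Eng in KO cells was at 8.51% to 14.5% of the Ctrl library of the same isolation in PBS and at 16.7% to 23.3% with ligand, so all 8 KO libraries matched their labels. All 7 listed BMP9 response genes rose in both genotypes, Id1 with a log2 fold change of 2.51 in Ctrl and 2.55 in KO and Smad6 with 3.45 and 3.21. All 10 endothelial markers were detected in every library. Of the leukocyte list, Ptprc (CD45) reached at most 5 counts and the selectin ligand Selplg at most 3, whereas the β2 integrin chain Itgb2 was at 18.6 to 80.8 CPM and the myeloid genes Lyz2 and Csf1r at up to 13.5 and 5.53 CPM. Of the epithelial and mesothelial list, which summed to 82.7 to 475 CPM, Epcam and Sftpc reached at most 4 and 0 counts, whereas the mesothelial Msln reached 247 CPM and the keratin Krt18 177 CPM. Markers of fibroblasts and mural cells were present (Pdgfrb at 22.3 to 108 CPM, its read count scaled to the library total), as was the lymphatic marker Lyve1 at 3040 to 5710 CPM with Prox1 at 6.34 to 66.1 CPM.

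Within 90 min of sENG(M):BMP9, Ctrl cells held more mRNA of Icam1, Sele and Selp and less of Vcam1. The increases were 43.7% for Icam1, 51.0% for Sele and 11.8% for Selp, and Vcam1 fell by 18.5%. Thus 3 of the 5 genes rose, where 5.86% of all tested genes did, and 1 of 5 fell, where 3.83% of tested genes did (adjusted p under 0.05, quasi-likelihood test of edgeR, blocked by isolation, with Benjamini-Hochberg adjustment over all tested genes, here and throughout). The 2 immunoglobulin-type molecules ICAM1 and VCAM1, which act in the same step, therefore moved in opposite directions at the level of mRNA.

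Icam1, the ligand of leukocyte β2 integrins, was at 1231, 1536, 1241 and 1277 CPM in the Ctrl PBS libraries of isolations 1 to 4. With sENG(M):BMP9 it was at 1911, 2276, 1741 and 1696 CPM. The lowest treated library thus lay above the highest PBS library, as it did for 4.01% of tested genes in either direction. The log2 fold change was 0.52 ± 0.0481 (SE, n = 4 per group; adjusted p = 3.60e-07), at place 118 of the 15693 genes ordered by p, and the single isolations gave 0.63, 0.57, 0.49 and 0.41.

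Sele is made almost only by activated endothelial cells. Its level was 665, 836, 305 and 363 CPM in Ctrl PBS and 1073, 1314, 450 and 505 CPM in Ctrl sENG(M):BMP9. The groups overlapped, because isolations 1 and 2 without ligand were above isolations 3 and 4 with it, but Sele was higher with ligand in 4 of 4 isolations. The log2 fold change was 0.59 ± 0.0555 (SE; adjusted p = 4.37e-07).

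Selp was at 724, 925, 618 and 934 CPM in Ctrl PBS and at 832, 1085, 682 and 980 CPM with sENG(M):BMP9. It was higher in 4 of 4 isolations, by the least in isolation 4, with a log2 fold change of 0.16 ± 0.0369 (SE; adjusted p = 0.00643). This call depended on isolation 2: without it the adjusted p was 0.0923.

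Vcam1, which binds the integrin VLA-4 on lymphocytes and monocytes, was at 1780, 2133, 2528 and 2731 CPM in Ctrl PBS. With sENG(M):BMP9 it was at 1395, 1766, 2121 and 2210 CPM, lower in 4 of 4 isolations although the groups overlapped. The log2 fold change was -0.30 ± 0.0441 (SE; adjusted p = 1.18e-04), and the 4 isolations lay close together, from -0.35 to -0.25.

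Icam2 was the lowest of the 5 genes, at 91.6, 110, 57.7 and 91.4 CPM in Ctrl PBS. With sENG(M):BMP9 its values were 84.2, 105, 50.0 and 84.0 CPM, below the PBS library in 4 of 4 isolations. Its log2 fold change of -0.13 ± 0.0405 (SE) did not pass the threshold (adjusted p = 0.0556). It did pass with a stricter filter on low counts (adjusted p = 0.0421), with quantile normalisation, ComBat and DESeq2 (0.00841) and without the KO PBS library of isolation 3 (0.0409).

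**Figure D1:**
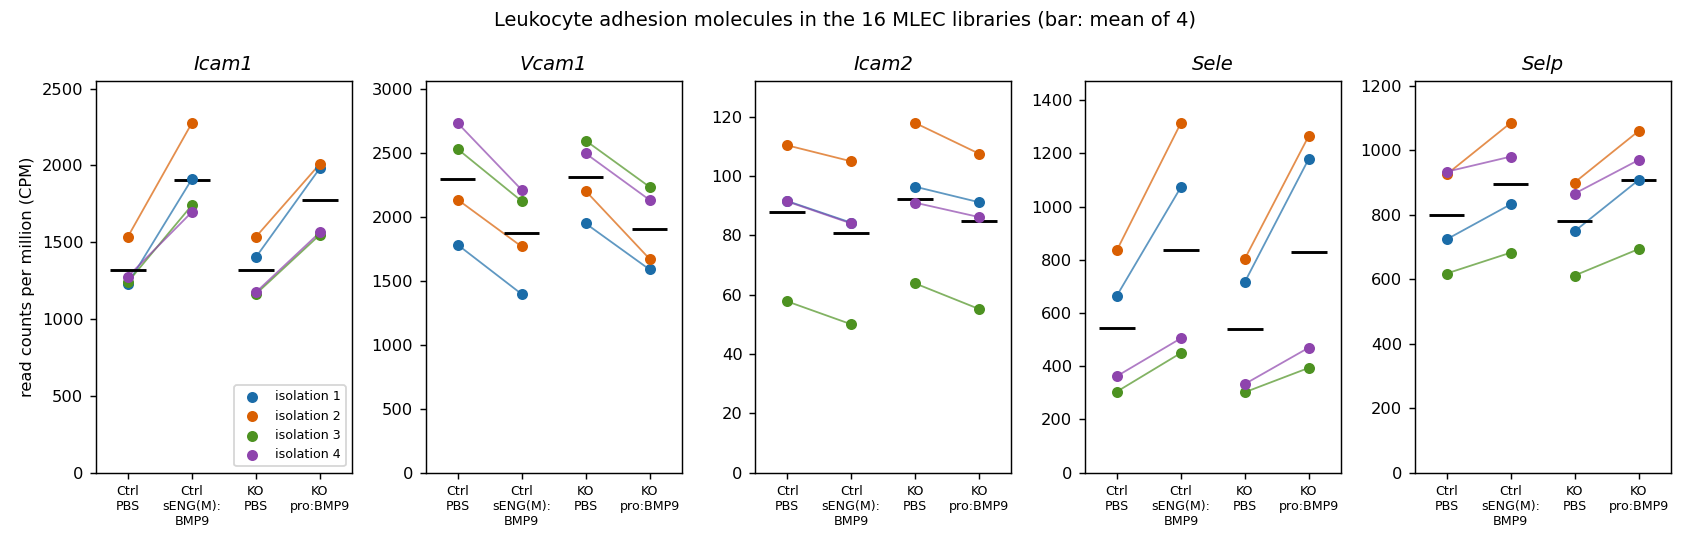
CPM of the 5 genes (y axis, from 0) in the 16 libraries by group (x axis); each colour is 1 isolation, lines join PBS and ligand within an isolation and genotype, and black bars are means of 4. Lines rise for Icam1, Sele and Selp and fall for Vcam1 and Icam2 in every isolation of both genotypes, and Icam1 is the gene whose PBS and ligand libraries do not overlap in either genotype.

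The same 4 genes passed the test in KO cells given pro:BMP9, in the same directions, with 3 of 5 higher (3.68% of tested genes were) and 1 of 5 lower (1.92% were). Icam1 was 34.7%, Sele 48.3% and Selp 16.1% higher than in KO PBS, and Vcam1 fell by 17.9%. The 2 comparisons share no library, but the cells come from the same 4 isolations.

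In KO PBS, Icam1 was at 1402, 1535, 1163 and 1174 CPM, and in KO pro:BMP9 at 1982, 2009, 1549 and 1564 CPM. These groups again did not overlap, which held for 2.67% of tested genes, and the log2 fold change was 0.43 ± 0.0481 (SE; adjusted p = 7.03e-06). Sele went from 717, 804, 302 and 333 CPM to 1180, 1266, 394 and 470 CPM, a log2 fold change of 0.57 ± 0.0556 (SE; adjusted p = 1.32e-06). As in Ctrl cells, its values in isolations 1 and 2 were above those in 3 and 4 whatever the treatment.

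Selp rose in KO cells from 749, 900, 612 and 866 CPM to 908, 1060, 694 and 970 CPM. The log2 fold change was 0.22 ± 0.0369 (SE; adjusted p = 8.01e-04). Vcam1 fell from 1947, 2201, 2594 and 2494 CPM to 1587, 1670, 2232 and 2130 CPM, a log2 fold change of -0.28 ± 0.0441 (SE; adjusted p = 2.93e-04). Both changes were seen in 4 of 4 isolations, with overlapping groups.

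Icam2 was at 96.4, 118, 63.8 and 91.0 CPM in KO PBS and at 91.2, 107.5, 55.1 and 86.1 CPM in KO pro:BMP9, with a log2 fold change of -0.12 ± 0.0405 (SE; adjusted p = 0.0962). It was lower in 4 of 4 isolations, and quantile normalisation with ComBat and DESeq2 put it past the threshold (0.0201). The average of the responses of the 2 genotypes, a comparison added after these values were seen, was -0.13 ± 0.0286 (SE, adjusted p = 0.00451). Both falls of Icam2 were known when this average was chosen, so its adjusted p is a description and not a separate call. In that average 3 of 5 genes were higher (7.46% of tested genes were) and 2 of 5 lower (5.65% were). In bulk RNA, fewer cells of a type and less RNA per cell cannot be told apart.

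Without the isolation as a block, the spread between isolations entered the error and none of the 5 genes passed in either genotype. The log2 fold changes hardly moved (Sele 0.62 and Icam1 0.53 in Ctrl), but the adjusted p in Ctrl was 0.083 for Icam1 and 1 for Sele, Selp and Vcam1. In KO it was 0.391 for Icam1 and 1 for Sele, Selp and Vcam1. The calls therefore rest on the comparison within isolations.

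**Figure D2:**
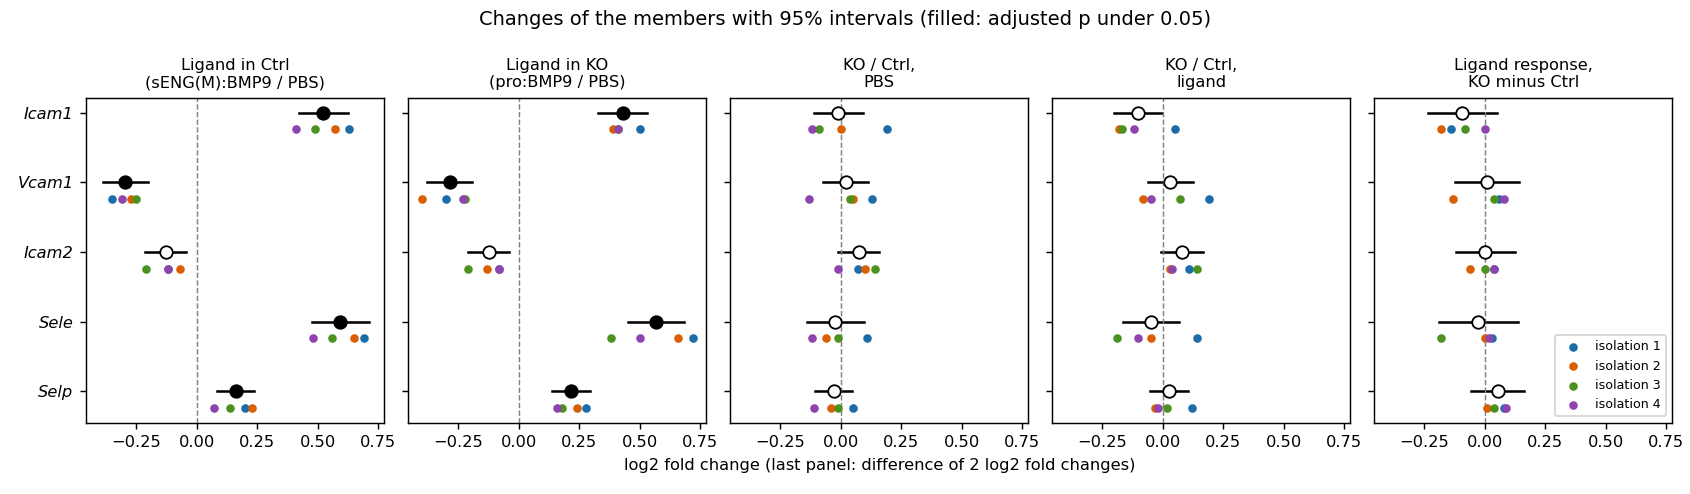
Log2 fold change of each gene (x axis) in the 5 comparisons (panels), with its 95% interval; large points are estimates, filled where the adjusted p was under 0.05, and small coloured points are the 4 isolations. Icam1, Sele and Selp lie right of 0 and Vcam1 left of it in both ligand panels, while no gene is filled in the 3 panels on genotype.

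Loss of Eng was not accompanied by a called change of any of the 5 genes. In PBS, where 0.0191% of tested genes passed, the log2 fold changes of KO against Ctrl ranged from -0.03 for Selp to 0.08 for Icam2. The 95% intervals were -0.11 to 0.09 for Icam1, -0.14 to 0.10 for Sele, -0.11 to 0.05 for Selp, -0.07 to 0.11 for Vcam1 and -0.01 to 0.16 for Icam2. A change of basal level by the 0.52 that sENG(M):BMP9 gave Icam1 thus lay outside the interval of each gene. None of the 5 had an unadjusted p under 0.05, and none passed with DESeq2. Smaller changes cannot be told from 0 here, and the signs of Icam1, Sele, Selp and Vcam1 turned when single libraries or isolations were left out.

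With ligand, 0.255% of tested genes passed between KO and Ctrl, and none of the 5 did. Icam1 was nearest, with a log2 fold change of -0.10 (95% interval -0.203 to -0.001; unadjusted p = 0.048, adjusted p = 0.538), lower in KO in 3 of 4 isolations. It passed with quantile normalisation, ComBat and DESeq2, at -0.13 (adjusted p = 0.0319). Sele was at -0.05 (-0.16 to 0.07), Selp at 0.03 (-0.05 to 0.10), Vcam1 at 0.03 (-0.06 to 0.12) and Icam2 at 0.08 (-0.01 to 0.17).

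The test of the difference itself asked whether the response to pro:BMP9 in KO cells differed from that to sENG(M):BMP9 in Ctrl cells. It called 0% of tested genes (565 of 15693 had an unadjusted p under 0.05, and DESeq2 called 20). For Icam1 the KO response was smaller by 0.09 on the log2 scale, with an interval from -0.24 to 0.05 and an unadjusted p of 0.189. For Sele the difference was -0.03 (-0.19 to 0.14), for Selp 0.06 (-0.06 to 0.16), for Vcam1 0.01 (-0.12 to 0.14) and for Icam2 0.003 (-0.12 to 0.12). The intervals leave room for a KO response of Icam1 that is smaller by up to 0.24 or larger by up to 0.05, so equal responses were not shown.

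Proximal promoters are shown because they are where the factors that induce these genes are known to bind. All 5 genes were looked up, and the RefSeq promoter table held 3 of the 5, Icam1, Sele and Selp. It held no promoter of Vcam1 or Icam2, so matches in genes that rose cannot be set against those in genes that did not. Each line gives the 250 bases before the start site, 5′ to 3′ on the gene's strand, and capitals mark matches to the κB-type motif GGNNNTTCC on either strand. Coordinates are those of GRCm38.p6, the build of that table and not of the counts: chr9:21015690-21015939 for Icam1, chr1:164047984-164048233 for Sele and chr1:164115014-164115263 for Selp, all on the plus strand.
Icam1: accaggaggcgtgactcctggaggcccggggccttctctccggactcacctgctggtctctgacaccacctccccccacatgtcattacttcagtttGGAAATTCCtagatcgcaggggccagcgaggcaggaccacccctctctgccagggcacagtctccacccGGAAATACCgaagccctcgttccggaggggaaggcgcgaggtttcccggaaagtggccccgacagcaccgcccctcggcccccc
Sele: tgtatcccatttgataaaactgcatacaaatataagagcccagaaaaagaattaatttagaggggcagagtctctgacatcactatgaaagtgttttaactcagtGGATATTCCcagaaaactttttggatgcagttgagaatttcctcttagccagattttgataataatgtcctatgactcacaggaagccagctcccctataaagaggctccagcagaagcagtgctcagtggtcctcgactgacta
Selp: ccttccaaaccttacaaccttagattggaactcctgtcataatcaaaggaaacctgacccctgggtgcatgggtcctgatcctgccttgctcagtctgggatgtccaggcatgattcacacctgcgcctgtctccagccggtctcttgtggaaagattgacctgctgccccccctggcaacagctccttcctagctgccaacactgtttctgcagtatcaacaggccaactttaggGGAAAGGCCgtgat

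Icam1 held 2 matches, beginning 153 and 84 bases before the start, of which the first reads the same on both strands. Sele held 1 at 145 bases and Selp 1 at 14 bases before the start. Of the 32851 RefSeq promoters searched in the same way, 15.7% held at least 1 such match. The AP-1-type motif TGANTCA, held by 6.75% of promoters, was found once in Sele (73 bases before the start) and once in Selp (139 bases), but not in Icam1. The SMAD1/5-type motif GGCGCC (9.59% of promoters) and an interferon-response-type motif made of 2 blocks GAAA with 2 free bases between them (2.98%) had no match in these 3 windows, which says only that these letters are not there. The motifs were chosen after the expression values were seen, and a match is not a shown binding site.

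Across the 5 genes, levels can be compared only per length. Per kilobase of the deposited gene length, the order in Ctrl PBS was Icam1 (303 ± 33.2 CPM per kilobase, SD, n = 4), Vcam1 (258 ± 47.6), Sele (186 ± 86.5), Selp (181 ± 35.2) and Icam2 (46.1 ± 11.5). The gaps between Icam1 and Vcam1 and between Sele and Selp were within the SDs, and Icam2 stood well below the other 4. The order depended on the length used. Per kilobase of the GENCODE canonical transcript, an alternative added later, Vcam1 came first (659 ± 121), before Icam1 (420 ± 46.0), Selp (233 ± 45.2), Sele (145 ± 67.1) and Icam2 (13.6 ± 3.40). Ligand moved Icam1 and Vcam1 in relation to each other on either scale. Per canonical length Icam1 was below Vcam1 in PBS and at 606 ± 83.8 against 538 ± 107 in Ctrl sENG(M):BMP9, a gap within the SDs.

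**Figure D3:**
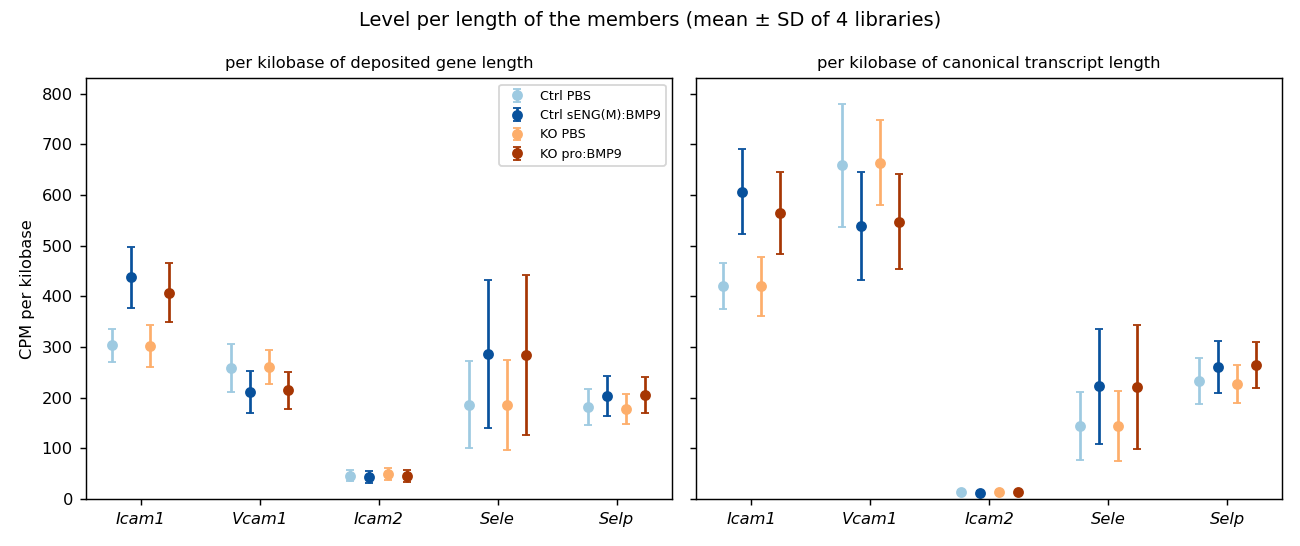
Level per length (y axis, CPM per kilobase; points are means and bars SDs of 4 libraries) of the 5 genes in the 4 groups, per kilobase of the deposited gene length (left) and of the canonical transcript (right). Icam2 is lowest on both scales, while Icam1 and Vcam1 exchange places in PBS between the 2 lengths.

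For 4 of the 5 genes, most of the variation in level lay between isolations. Isolation took 94.8% of the sum of squares of log2 CPM over the 16 libraries for Icam2, 84.0% for Selp, 83.2% for Sele and 65.7% for Vcam1. For Icam1 it took 26.9%, and the group took 68.7%. Over all tested genes the medians were 63.8% for isolation and 8.79% for group, so the group share of Icam1 was high and its isolation share low beside a typical gene. The group share was 30.1% for Vcam1, 15.9% for Sele, 13.7% for Selp and 4.31% for Icam2.

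The 2 selectins, which lie near each other on chromosome 1, did not follow the same order of mice. Sele averaged 909 and 1055 CPM in isolations 1 and 2 and 363 and 418 CPM in isolations 3 and 4, with no overlap between these pairs of isolations (665 to 1314 against 302 to 505 CPM). Selp was highest in isolations 2 and 4 (992 and 937 CPM), lower in isolation 1 (803) and lowest in isolation 3 (651). Vcam1 ran opposite to Sele in these mice, with 1677 and 1942 CPM in isolations 1 and 2 and 2369 and 2391 CPM in 3 and 4. Icam2 was lowest in isolation 3 (56.7 CPM, against 88.1 to 110 in the other 3). With 1 mouse per isolation these are descriptions of 4 mice.

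Markers of cell makeup also differed between isolations. The summed level of the 10 endothelial markers was lowest in isolation 3 (3690 to 4144 CPM over its 4 libraries), where Icam2 and Selp were lowest too, and highest in isolation 2 (7512 to 8204 CPM). The summed level of the 14 leukocyte markers and counter-receptors left after setting aside the widely expressed Itgb1 was 35.7 to 40.5 CPM in isolations 1 and 2 and 81.4 to 113 CPM in 3 and 4, with Ptprc near 0 in all. The fibroblast and mural list was at 73.0 to 87.7 CPM in isolation 2 and at 333 to 689 CPM in the other 3. The part of these differences in the levels of the 5 genes was not tested. With ligand, the summed endothelial markers were higher than with PBS in 4 of 4 isolations of each genotype (for isolation 1, 6672 against 6047 CPM in Ctrl and 6502 against 6063 in KO). This sum includes Eng and Kdr, which themselves rose with ligand, so it does not measure endothelial cell content alone. In KO isolation 2 the sum went from 7512 to 7575 CPM while Eng went from 50.5 to 130 CPM. In KO isolation 4 the sum went from 5513 to 5516 CPM while Eng went from 60.0 to 115 CPM. In KO isolations 1 and 3 the sum rose by more than Eng did. The fibroblast and mural sum was higher in 4 of 4 isolations of Ctrl (568 against 563 CPM in isolation 1) and in 1 of 4 of KO. No single leukocyte, fibroblast and mural, epithelial or lymphatic marker passed the test between ligand and PBS in either genotype, whereas Pdgfra (0.25) and Krt18 (0.15) did in the average of both responses. Of the endothelial markers, Pecam1, Kdr and Eng rose with ligand in Ctrl and Kdr and Eng in KO, Kdr (VEGF receptor 2) by 0.92 and 0.76 on the log2 scale. Cldn5 went the other way, at -0.22 in Ctrl (adjusted p = 0.0562) and -0.15 in KO, and passed in neither. In the average of both responses 3 of the 10 endothelial markers were higher and 1 was lower. Between KO and Ctrl, the fibroblast and mural sum was lower in KO in 4 of 4 isolations with PBS (413, 75.2, 593 and 350 CPM against 563, 82.2, 669 and 511) and with ligand (435, 73.0, 592 and 333 against 568, 87.7, 689 and 525). The median log2 fold change of this list was -0.24 with PBS and -0.30 with ligand. Dcn passed in both (-0.61 and -0.61), and Pdgfrb with ligand (-0.29, adjusted p = 0.0289). The part of this shift in the comparisons of the 5 genes between genotypes was not tested.

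**Figure D4:**
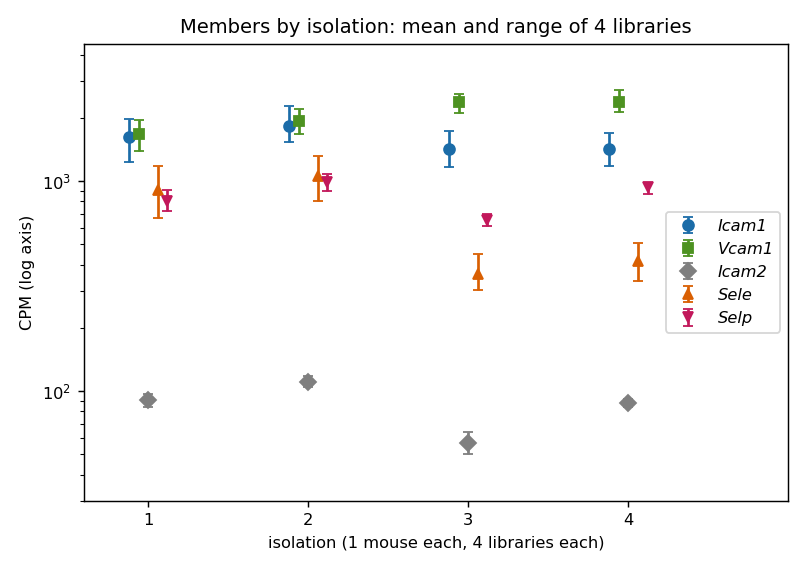
Mean CPM of each gene (y axis, log scale) in the 4 isolations (x axis, 1 mouse each); whiskers span the lowest and highest of the 4 libraries of an isolation. Sele lies at 302 to 505 CPM in isolations 3 and 4 and at 665 to 1314 CPM in 1 and 2, and Vcam1 is higher in 3 and 4.

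Around the 5 genes, lists of related genes were examined, whose counts stand beside 5.86% of all tested genes that rose and 3.83% that fell in Ctrl, and 3.68% and 1.92% in KO. Of 25 genes listed as cytokine receptors and transcriptional inducers, all tested, 3 rose and 5 fell in Ctrl with sENG(M):BMP9, and 3 rose and 2 fell in KO with pro:BMP9. This list also held the NF-κB inhibitor genes Nfkbia, Nfkbib, Nfkbie and Tnfaip3, so its counts and median do not describe inducers alone. The median log2 fold change was -0.11 in Ctrl, beside -0.005 over all tested genes, and -0.04 in KO, beside 0. Tlr4, the lipopolysaccharide receptor, fell by 0.46 on the log2 scale in Ctrl (adjusted p = 3.00e-07) and by 0.35 in KO (1.37e-05). Traf2, an adaptor below TNF receptors, fell by 0.47 in Ctrl (adjusted p = 1.26e-04) and by 0.37 in KO (0.0021). The genes that rose in both genotypes were Tnfaip3, Tnfrsf1b and Il4ra. Tnfaip3, which encodes the NF-κB inhibitor A20 and is itself an NF-κB target, rose by 0.28 in Ctrl (adjusted p = 2.94e-04) and 0.26 in KO (0.00123). Tnfrsf1b, the second TNF receptor, rose by 0.37 (5.90e-04) and 0.35 (0.00198), and Il4ra, a subunit of the interleukin-4 receptor, by 0.23 and 0.19. The NF-κB subunit genes Rela and Rel and the stress-response factor Atf3 fell in Ctrl cells (-0.18, -0.24 and -0.29), named here after their values were seen. The other listed subunit genes Nfkb1 (0.08), Nfkb2 (-0.13) and Relb (-0.12) did not pass in Ctrl. In KO none of these genes passed (Rela -0.12, Rel -0.08, Atf3 -0.17, Nfkb1 0.01, Nfkb2 -0.17 and Relb -0.13). Nfkbia, the inhibitor that NF-κB induces quickly, was at -0.04 in both genotypes (95% interval -0.12 to 0.04), and the interferon-induced Irf1 at 0.07 (-0.05 to 0.18) in Ctrl and -0.004 (-0.12 to 0.11) in KO. Both were singled out after their values were seen.

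Of 10 genes listed as restrainers of adhesion molecule expression, 0 rose and 2 fell in Ctrl, and 1 rose and 2 fell in KO. The genes that fell were the same in both, Klf6 and Zfp36. Zfp36, whose product tristetraprolin promotes decay of cytokine and related mRNAs, fell by 0.56 in Ctrl (adjusted p = 1.97e-04) and 0.51 in KO (9.11e-04). Klf6, a zinc finger transcription factor, fell by 0.40 (1.17e-05) and 0.30 (5.05e-04). Nr4a1, a nuclear receptor induced early by many stimuli, rose in KO by 0.45 (adjusted p = 0.0282). The list's median was -0.04 in Ctrl and 0.01 in KO. Klf2, the flow-induced factor of quiescent endothelium, was at 0.11 (95% interval -0.05 to 0.27) in Ctrl and 0.18 (0.02 to 0.34) in KO, and did not pass.

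**Figure D5:**
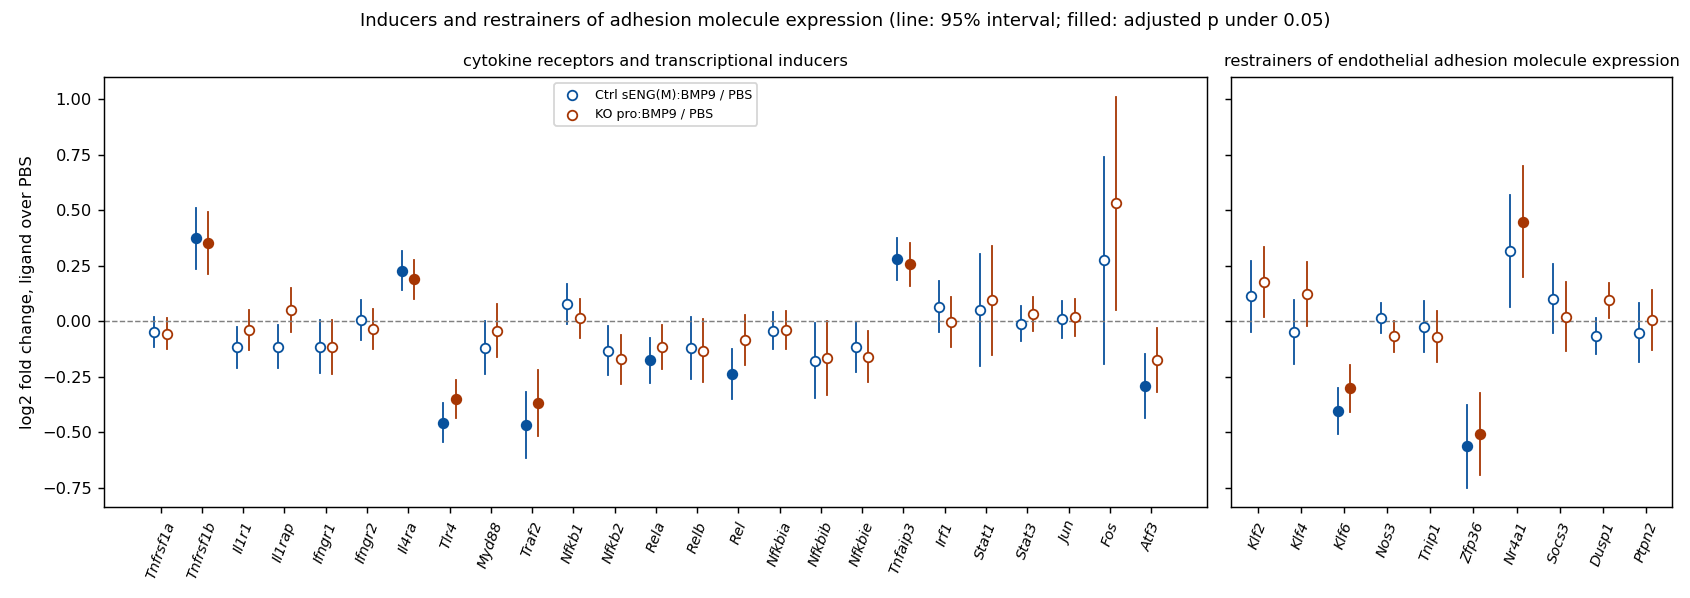
Log2 fold change with ligand (y axis; points are estimates, lines 95% intervals, filled where the adjusted p was under 0.05) of 25 receptors, inducers and NF-κB inhibitors (left) and 10 genes listed as restrainers (right), in Ctrl (blue) and KO (brown). Tlr4, Traf2, Klf6 and Zfp36 lie below 0 and Tnfrsf1b, Il4ra and Tnfaip3 above it in both genotypes, and most other genes have intervals that reach 0.

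Of the other molecules of adhesion and transmigration, 21 were listed and 18 tested. In Ctrl 2 rose and 2 fell, and in KO 1 rose and 1 fell, with medians of 0.004 and -0.02. Podxl, a sialomucin of the endothelial surface, rose by 0.29 in Ctrl (adjusted p = 2.96e-04) and 0.28 in KO (6.11e-04). Pvr, a nectin-like molecule of cell junctions, fell by 0.39 (1.91e-05) and 0.28 (0.00106). The junctional genes Pecam1 (0.12) and F11r (-0.13) also passed in Ctrl, whereas Cdh5, VE-cadherin, was at 0.05 (95% interval -0.01 to 0.12). Of 13 cytoskeletal partners that anchor ICAM1 and VCAM1, 2 rose in Ctrl and 1 in KO and none fell. Rdx (radixin) rose by 0.22 in Ctrl and 0.19 in KO, and Actn4 (α-actinin-4) by 0.15 in Ctrl. Among 10 genes of the storage granule and of ectodomain shedding, Rab27a, which acts in granule release, rose in Ctrl (0.38, adjusted p = 0.00372), and no gene passed in KO. Von Willebrand factor (Vwf) was at 0.07 in Ctrl (-0.13 to 0.27).

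Of these 5 lists, only Dusp1, a phosphatase gene on the restrainer list, passed in a comparison of genotypes, at 0.23 in KO pro:BMP9 against Ctrl sENG(M):BMP9 (adjusted p = 0.0137). No gene of the lists passed in the test of the difference between responses.

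The genes most like each member were sought by Pearson correlation of log2 CPM over the 16 libraries after subtracting the mean of each isolation, among 15692 other genes. For Icam1 these were Fgfr3 (r = 0.990), Sele (0.985) and Tnfaip2 (0.981). Tnfaip2 and Fgfr3 also led for Sele (0.987 and 0.985), followed by Itpripl2 (0.985). For Selp they were Ccdc71l (0.966), Sele (0.963) and Cebpb (0.961). Icam1 and Selp thus had Sele among their nearest 3 genes. For Vcam1 they were Zfp41 (0.967), Plk3 (0.962) and Pim1 (0.960), and for Icam2 Uaca (0.958), Hilpda (0.947) and Tns2 (0.943). After this subtraction the pattern is mostly the ligand response, and the libraries share isolations and depth, so these values are descriptions. Fold changes of these genes differed even so: Fgfr3 rose by 1.62 in Ctrl and 1.47 in KO on the log2 scale, and Tnfaip2 by 0.60 and 0.51. Without the subtraction the nearest genes were Trim47 for Icam1, Slc22a15 for Sele, Pparg for Selp, Parp3 for Vcam1 and Lpin3 for Icam2.

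In the deposited coordinates (GRCm39), Icam1 lies on chromosome 9 at 20927281 to 20940113, Vcam1 on chromosome 3 at 115903598 to 115923337, Icam2 on chromosome 11 at 106268482 to 106278901, Sele on chromosome 1 at 163875803 to 163885246 and Selp on chromosome 1 at 163942833 to 163977595. All are protein-coding genes. Sele and Selp are 57587 bases apart. Directly downstream of Icam1 lie its paralogs Icam4 and Icam5, which reached at most 21 and 116 counts and did not pass in either genotype (Icam5 0.23 in Ctrl, adjusted p = 0.451). The rise of Icam1 thus stood beside paralogs at far lower counts on the same strand.

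In the deposited coordinates, long non-coding genes on the opposite strand overlap 3 of the members. The GENCODE annotation has opposite-strand overlaps for all 5, adding Gm57120 at Sele, Prr29 at Icam2 and Gm69625 at Selp, and none on the same strand. Gm47079, which overlaps Icam1, reached 441 counts at most and rose by 0.54 in Ctrl (adjusted p = 0.00204) and 0.46 in KO (0.0128), close to the values of Icam1. Gm43109, which overlaps Vcam1, fell by 0.47 in Ctrl (adjusted p = 0.0127) and was at -0.30 in KO (0.206). Gm16548 and Gm16587, which overlap Selp, did not pass. The libraries were stranded, but whether the counting used the strand is not given in the sources used here, so the reads of each antisense gene and its partner may not have been told apart. These genes held at most 441 counts in a library, against at least 18934 for Icam1, 22995 for Vcam1 and 10172 for Selp.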

How the data were processed

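RNA was sequenced from 16 libraries of MLECs, 4 per group, as stranded poly-A libraries. The authors deposited 1 table of raw read counts per gene, not normalised. The submitters' processing notes name HISAT2 2.0.5, featureCounts 1.5.0-p3 and DESeq2 1.26.0 and the build GRCm39, while the annotation release is not given in the sources used here. The authors' later quantile normalisation and ComBat are not in the deposited counts. A further deposited column holds the gene length in bases (unit other), used for levels per length. Groups came from the labels, and all samples and columns were used.

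Genes were filtered with filterByExpr (15693 kept) and fitted with edgeR 4.0.16 (TMM factors, quasi-likelihood) in R 4.3.3 over all 16 libraries with the isolation as a block. The threshold was an adjusted p of 0.05, and 95% intervals are the log2 fold change ± t × SE. Same-numbered libraries come from the same isolation, that is the same mouse. Their deviations from group means correlated with a mean r of 0.757 (0.67 to 0.805 over 24 pairs, against -0.251 over 72 other pairs). No 2 libraries agreed within sampling noise. Library totals were 14869115 to 17242117 reads.

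The 5 genes and all lists were chosen with earlier results of these data known. Named were the 5 genes, Eng, Id1 and Smad6 as checks, up to 3 called genes per list and comparison with the lowest adjusted p, the 3 genes most correlated with each member (log2 CPM, prior count 2) and defining markers of other cell types. Where a count was 5 or less, further genes were named after their values were seen. Alternatives were DESeq2 1.42.0, RLE factors, 2 other filters on low counts, no block, the 8 libraries of a comparison alone, quantile normalisation and ComBat (sva 3.50.0) before DESeq2, and leaving out each library or isolation. ComBat was given the isolation as the batch and kept the group differences, and DESeq2 then ran without a block. The authors' batch variable is not named in the sources used here, so these steps may differ from theirs. The average of both responses and the canonical transcript length were added after the data were seen. The fit was tested on simulated data: of 199 genes changed among 15655, 152 were called for the Ctrl ligand comparison, among them 55 of the 84 changed by 0.5 on the log2 scale, with 6 unchanged genes called. For the KO ligand comparison 149 were called, among them 50 of the 84, with 13 unchanged genes called. For the average of both responses 168 were called, with 10 unchanged genes called. Both comparisons of KO with Ctrl and the difference of responses held 0 changed genes in the simulation, and 0 genes were called. Detection of a change was thus not tested for them. No change smaller than 0.5 was simulated for any comparison.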

Additional observations from a re-analysis of the deposited data

Results flagged for a closer look

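Among 45 sets of 4 values (the CPM of each of the 5 genes in each group, and its 4 isolation values in each of 5 comparisons), 2 held a value far from the other 3 by Dixon's criterion, which chance gives in about 1 in 20 such sets. Icam1 in Ctrl PBS was at 1536 CPM in isolation 2, against 1231 to 1277 CPM in the other 3. The difference between the ligand responses of Sele, KO minus Ctrl, was -0.18 on the log2 scale in isolation 3, against 0.00 to 0.03 in the others.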

How the results depend on the processing

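Direction and call of Icam1, Sele, Selp and Vcam1 in both ligand comparisons were kept under DESeq2 with the replicate block, RLE factors, both other filters, the 8 libraries alone and quantile normalisation with ComBat and DESeq2, and when any 1 library was left out. Without the replicate block, values and adjusted p were 0.53 (0.083) for Icam1, -0.29 for Vcam1, 0.62 for Sele and 0.16 for Selp in Ctrl (the last 3 at 1), and 0.43 (0.391), -0.28, 0.62 and 0.22 in KO. For the average they were -0.12 for Icam2, -0.28 (0.499) for Vcam1, 0.62 (0.838) for Sele and 0.19 for Selp. Counts of called genes without it were 167 in Ctrl with ligand (1521 with it), 91 in KO with ligand (878), 1 for each comparison of KO with Ctrl (3 in PBS, 40 with ligand) and 372 for the average (2056). The cause is in the construction, since the block removes the spread between isolations.

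Icam2 passed in Ctrl at -0.13 with at least 10 counts in every library and at -0.13 with quantile normalisation, ComBat and DESeq2, and in KO at -0.12 with the latter. Those steps also gave -0.13 for Icam1 between genotypes with ligand, -0.033 (reversed) for Vcam1 in the difference of responses, and counts of 1340 in KO with ligand, 169 and 533 between genotypes in PBS and with ligand, and 17 for the difference. The difference of Icam2 was -0.001 with DESeq2 and with RLE factors. DESeq2 called 64, 198 and 20 genes for the comparisons of KO with Ctrl in PBS and with ligand and for the difference, and no filter on low counts gave 204, 517 and 52. The 8 libraries alone gave 1 in PBS. The cause of these shifts was not tested.

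Leaving out single libraries or isolations gave 0.13 to 0.20 for Selp in Ctrl (call lost without isolation 2) and -0.14 to -0.10 for Icam2 (passed without KO PBS of isolation 3). Between genotypes in PBS, Icam1 ranged from -0.074 to 0.032, Vcam1 from -0.018 to 0.071, Sele from -0.075 to 0.023 and Selp from -0.057 to 0.005, and with ligand Vcam1 from -0.022 to 0.065, Selp from -0.011 to 0.05 and Sele from -0.12 to 0.005. For the difference, Icam2 ranged from -0.025 to 0.034, Vcam1 from -0.03 to 0.05 and Sele from -0.101 to 0.026. Called genes ranged from 573 (without isolation 2) to 908 in KO with ligand, from 1 to 69 (without isolation 4) between genotypes in PBS, and with ligand from 3 (without KO pro:BMP9 of isolation 4) to 192 (without Ctrl sENG(M):BMP9 of isolation 4). The 5 genes held at least 850 counts in each library, and neither depth nor the number of mice was varied.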
